A study of Homo sapiens with 12 samples.

Results

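The glypicans GPC1, GPC2, GPC3, GPC4, GPC5 and GPC6 were followed across 12 RNA sequencing libraries of A549 cells, an established human lung adenocarcinoma line. The 6 genes were taken by symbol from a table of 26334 genes. GPC6 was chosen by its own values in these data, its Cisplatin response and the difference of that response between control and depleted cells, so it is described here without a test. The other 5 genes came with it as the rest of the family, and their tests are given. The design had 4 groups of 3 replicates: A549 cells with a control shRNA (shControl) or with an shRNA against RNF113A (shRNF113A), each left untreated or given Cisplatin. All cells, controls included, were infected with lentiviruses that carry an shRNA and selected with puromycin at 1 µg/ml for 4 days. The labels give Cisplatin at 25 µg/ml for 20 h. The paper writes the dose in another unit (µM), with this time in some experiments and other times in others. The depletion rests on 1 shRNA construct, and the control construct is a non-targeting shRNA, so an effect of depletion and an effect of that construct cannot be told apart. Cisplatin is a platinum drug that crosslinks DNA, and RNF113A is a ubiquitin ligase that is also a part of the spliceosome.

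Glypicans are heparan sulfate proteoglycans that are held on the outer face of the plasma membrane by a glycosylphosphatidylinositol anchor. Their sulfated sugar chains bind secreted ligands such as Wnt, Hedgehog and FGF proteins, and individual glypicans raise or lower the response of a cell to these ligands. GPC3 and GPC4 lie next to each other on the X chromosome, and GPC5 and GPC6 lie next to each other on chromosome 13, arrangements that are thought to descend from duplications.

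In the annotation of the hg19 build that accompanies the files, the shortest of the 6 genes is GPC2, which spans 7.767 kb on the minus strand (chr7:99767229-99774995). GPC1 spans 32.41 kb on the plus strand (chr2:241375088-241407493). GPC4 spans 115.4 kb on the minus strand (chrX:132434131-132549518), and GPC3 lies 120.3 kb beyond it on the same strand and spans 450.1 kb (chrX:132669773-133119922). The longest genes are GPC6, which spans 1181 kb on the plus strand (chr13:93879095-95059655), and GPC5, which spans 1469 kb on the same strand and ends 359.6 kb before GPC6 (chr13:92050929-93519490). Introns make up 67.4% of GPC2, 86.46% of GPC1, 95.7% of GPC4, 99.41% of GPC3, 99.45% of GPC6 and 99.8% of GPC5. The exonic length in contrast has a narrow range, from 2.532 kb in GPC2 to 6.467 kb in GPC6. The nearest protein-coding neighbours in that annotation are OTOS and ANKMY1 around GPC1, GAL3ST4 and STAG3 around GPC2, TFDP3 and CCDC160 outside the GPC4 and GPC3 pair, and SLITRK5 and DCT outside the GPC5 and GPC6 pair. STAG3 starts only 191 bp from GPC2, on the other strand, and an antisense gene, AC110619.2, lies inside GPC1.

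GPC2 and GPC6 stood at the 2 ends of the Cisplatin response described in the next paragraphs, so their promoters are shown. The sequences are from RefSeq on the GRCh38.p14 build, and 5 of the 6 genes matched, all except GPC3. Each window runs from 250 bases before the transcription start to 50 bases after it, on the strand of the gene. Capitals mark the GC box letters GGGCGG, searched on both strands (CCGCCC), and the TATA box letters TATAAA, searched on both strands (TTTATA). The GPC6 window is chr13:93226557-93226856 on the plus strand, and the GPC2 window is chr7:100177332-100177631 on the minus strand.
GPC6: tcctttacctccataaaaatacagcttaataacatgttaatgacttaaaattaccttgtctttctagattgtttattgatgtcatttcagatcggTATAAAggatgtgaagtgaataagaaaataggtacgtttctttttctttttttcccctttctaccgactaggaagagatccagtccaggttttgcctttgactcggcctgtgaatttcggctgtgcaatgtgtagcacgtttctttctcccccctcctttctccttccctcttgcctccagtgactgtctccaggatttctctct
GPC2: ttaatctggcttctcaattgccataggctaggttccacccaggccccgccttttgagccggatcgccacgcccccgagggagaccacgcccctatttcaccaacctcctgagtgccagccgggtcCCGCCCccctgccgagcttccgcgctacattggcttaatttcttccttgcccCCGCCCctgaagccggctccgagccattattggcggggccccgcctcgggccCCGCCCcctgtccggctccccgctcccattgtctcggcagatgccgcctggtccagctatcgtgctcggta
The GPC6 window held 0 GC box matches, 1 TATA box match and 6 CpG, and 40% of its bases were G or C. The GPC2 window held 3 GC box matches, 0 TATA box matches and 24 CpG, at 66% G or C. The windows of GPC1, GPC4 and GPC5 held 4, 2 and 3 GC box matches and 45, 37 and 33 CpG, and that of GPC5 also held 1 TATA box match. Over all 35116 promoters of the same length, 45% held a GC box match and 11.5% a TATA box match, with a median of 14 CpG and of 58.7% G or C. A match describes the letters of the window and is no evidence of a bound factor.

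Libraries held 33859097 to 56071514 read pairs, of which 26220526 to 45721152 were counted on genes. The RNA of the targeted gene was only slightly lower in depleted cells. The paper examined the depletion in A549 cells by western blot of the protein, which these counts do not measure. In untreated cells RNF113A had 743, 707 and 725 normalized counts with shControl and 555, 572 and 612 with shRNF113A, and in Cisplatin-treated cells it had 1144, 1047 and 997 with shControl and 908, 855 and 1047 with shRNF113A. The untreated groups did not overlap, whereas the treated groups did, and the depletion effect over all libraries was a log2 fold change of −0.23 (SE 0.071), with an adjusted p of 0.0185 in the quasi-likelihood test of edgeR. The control libraries numbered 2, untreated and Cisplatin-treated, stood apart. Their counts differed from those of the other control libraries with a chi-square per degree of freedom of 63.5 to 96, against 4.06 to 18.1 within all other pairs of replicates. Where a glypican passed or lost a test or a call without these 2 libraries, both values are given. The epithelial markers EPCAM, CDH1, KRT8, KRT18 and KRT19 were all detected, with a sum of 123254 to 510161 normalized counts. Of the markers of other cell types, 3 of 4 for fibroblasts passed the filter on low counts (all except DCN), 1 of 3 for endothelium (not PECAM1 or VWF) and 1 of 4 for leukocytes (PTPRC and CD3E were among those that did not). The fibroblast sum was 218.9 to 1286 in untreated control cells, 255.7 to 529.4 in Cisplatin-treated ones, and 137.6 to 223.9 and 227.1 to 250.3 in the depleted groups. The endothelial sum was at most 28.47 and the leukocyte sum at most 163.8 in any library. The epithelial sum was lower in all 6 Cisplatin libraries (123254 to 201376) than in the 6 untreated ones (260522 to 510161), and the part of these markers in the glypican results was not tested.

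Of the 6 glypicans, 5 passed the filter on low counts and GPC5 did not. GPC5 had 0 read pairs in 9 of 12 libraries and at most 3 in any library, 6 in all. A count of 0 allows up to 3 read pairs, so a difference in GPC5 was not detectable at this depth. Between genes, levels were compared as normalized counts per kb of exon. In untreated control cells GPC1 was the most abundant glypican, with 992 per kb on average, followed by GPC6 with 216, GPC4 with 55.5, GPC2 with 24.4 and GPC3 with 12.1. The ranges of GPC2 (19.5 to 28.5) and GPC3 (6.97 to 19.6) overlapped, and the other neighbours in this order were apart. In Cisplatin-treated control cells the order was GPC1 with 999 per kb, GPC2 with 53.5, GPC4 with 38.6, and GPC3 and GPC6 with 2.26 and 2.22, whose ranges overlapped. GPC6 thus moved from the second place among the glypicans to the level of GPC3. GPC6 was again second in depleted cells without Cisplatin, with 98.7 per kb after 696 of GPC1. With Cisplatin it was at 6.07 per kb there (4.7 to 7.9), with a range that overlapped that of GPC4 (7.66 to 11).

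**Figure D1:**
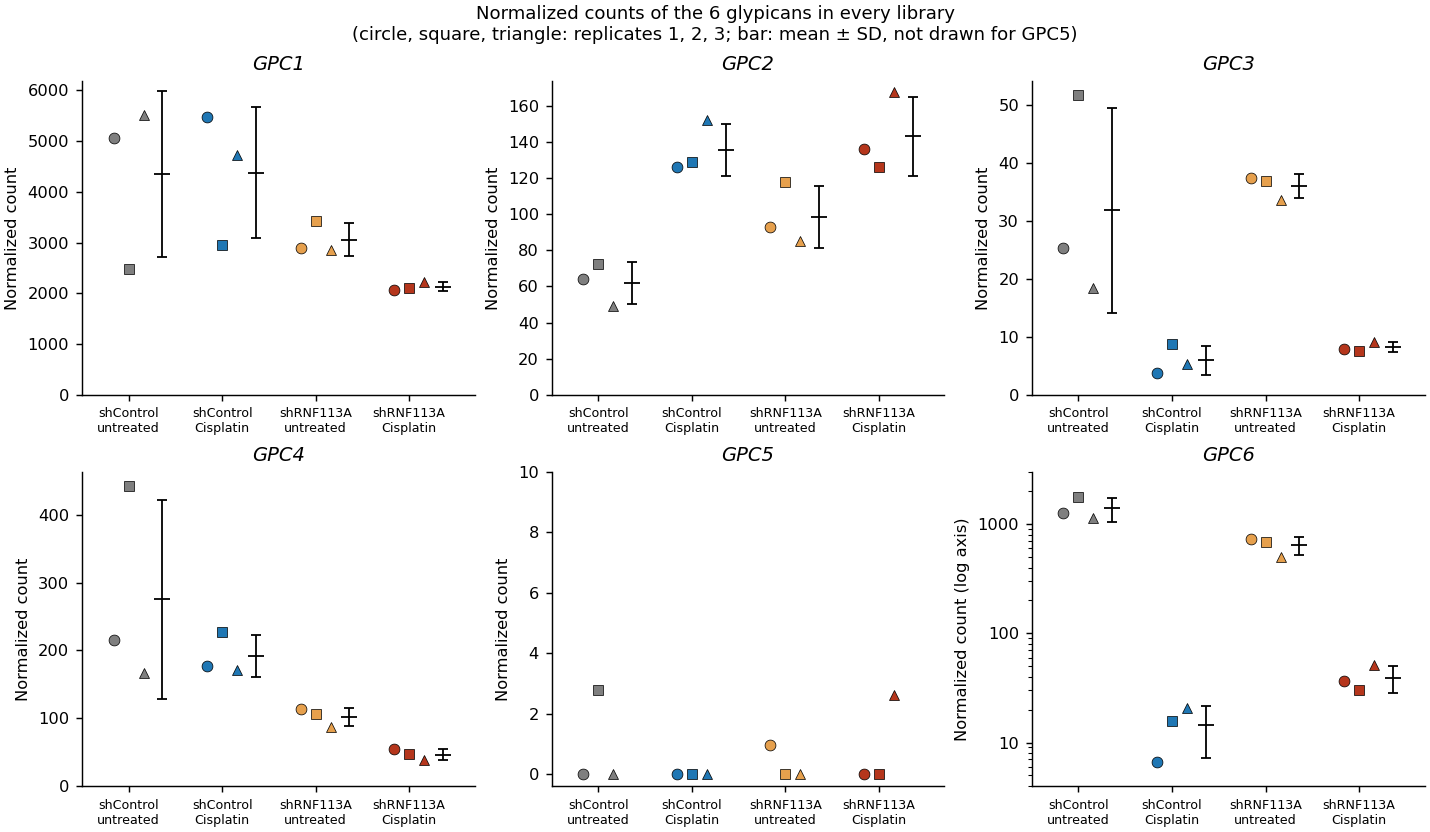
Normalized counts (vertical axis) of each glypican in the 12 libraries, grouped by condition on the horizontal axis, with points for single libraries and bars for the mean and SD of 3 libraries, which are not drawn for GPC5. The vertical axis is linear except for GPC6, which has a log axis, and GPC6 fell from 1147 to 1790 in untreated control cells to 6.68 to 20.7 after Cisplatin.

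The Cisplatin effect of the 5 tested glypicans ran from a rise of GPC2 to the steep fall of GPC6. GPC2 rose 1.82-fold, GPC4 fell 1.7-fold and GPC3 fell 4.68-fold over both cell types, and GPC6, described only, was 36.8-fold lower. GPC1 did not pass the test over all libraries. At the threshold used for calls, an adjusted p under 0.05 with at least a 2-fold change, 2 of 5 tested glypicans were called, GPC3 and GPC6, against 21.5% of all 15352 genes tested. GPC6 was chosen on this effect, so nothing is read from its place in this count or in the counts within single conditions. By the adjusted p alone 34.8% of all genes were higher and 32.1% were lower after Cisplatin, and among the 5 tested glypicans 1 was higher and 3 were lower. In such bulk samples fewer cells with a transcript and less of it per cell cannot be told apart.

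GPC6 is a glypican known for its role in skeletal growth. It had 1256, 1790 and 1147 normalized counts in untreated control cells and 6.68, 15.7 and 20.7 after Cisplatin. In depleted cells it had 724, 690 and 501 when untreated and 36.3, 30.4 and 51.1 after Cisplatin. All 6 treated libraries were below all 6 untreated ones, and the treated depleted libraries were all above the treated control libraries. The raw values behind the treated level were small, 7, 18 and 27 read pairs in control cells and 32, 28 and 39 in depleted cells. The log2 fold change with Cisplatin was −6.54 (SE 0.32), or 93.3-fold, in control cells and −3.99 (SE 0.29), or 15.9-fold, in depleted cells. The difference between these effects, the interaction, was 2.56 (SE 0.44) on the log2 scale. Only 1.28% of all genes were called for the interaction, but this contrast and the Cisplatin contrast chose GPC6, so nothing is read from its place in it. With depletion GPC6 was lower in untreated cells (log2 fold change −1.12, SE 0.23) and higher in Cisplatin-treated cells (1.44, SE 0.38), from 14.3 ± 7.09 to 39.3 ± 10.7 normalized counts (SD, n = 3).

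GPC3 regulates body growth during development and is an antigen of liver cancers. It was scarce in A549 cells, with 25.3, 51.8 and 18.4 normalized counts in untreated and 3.82, 8.72 and 5.36 in Cisplatin-treated control cells. In depleted cells it had 37.5, 37 and 33.6 counts when untreated and 7.95, 7.6 and 9.17 after Cisplatin. Treated and untreated libraries did not overlap in either cell type. GPC3 fell by 2.38 on the log2 scale in control cells (SE 0.42, adjusted p = 4.2e-04) and by 2.07 in depleted cells (SE 0.42, adjusted p = 9.9e-04, both by edgeR). The interaction was 0.31 (SE 0.60, adjusted p = 0.822). GPC3 had only 4 to 10 read pairs in the treated libraries against 19 to 56 in the untreated ones. It passed the filter on low counts through the untreated groups, so its call is not read as support. With a stricter filter of 10 counts or more in each of the libraries neither GPC3 nor GPC6 was tested, and 0 glypicans were called for Cisplatin.

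GPC4 is a glypican of developing tissues and stem cells that takes part in Wnt signalling. It had 216, 443 and 167 normalized counts in untreated and 177, 227 and 171 in Cisplatin-treated control cells. In depleted cells it had 113, 106 and 87.2 when untreated and 54.5, 46.7 and 38 after Cisplatin. The control groups overlapped and the depleted groups did not. Over both cell types GPC4 fell by 0.77 on the log2 scale with Cisplatin (SE 0.23, adjusted p = 0.00924). Within control cells the change was −0.51 (SE 0.30, adjusted p = 0.164), and within depleted cells it was −1.09 (SE 0.34, adjusted p = 0.0142), which no longer passed without shRNF113A Cisplatin replicate 3 (−0.97, adjusted p = 0.0555). These effects were not shown to differ over all 12 libraries (interaction −0.58, SE 0.45, adjusted p = 0.503). Without both control libraries numbered 2 the control effect was −0.12 (SE 0.18, adjusted p = 0.593) and the interaction passed, at −0.97 (SE 0.26, adjusted p = 0.0179).

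GPC2 is best known from the developing nervous system and from neuroblastoma. It was the only tested glypican to pass the test for a rise, with 63.9, 72.2 and 49.4 normalized counts in untreated and 126, 129 and 152 in Cisplatin-treated control cells. In depleted cells it had 93.2, 118 and 85 counts when untreated and 136, 126 and 168 after Cisplatin. All treated libraries were above the untreated libraries of the same cells. GPC2 rose by a log2 fold change of 1.15 in control cells (SE 0.20, adjusted p = 3.7e-04) and of 0.58 in depleted cells (SE 0.20, adjusted p = 0.0212), where it no longer passed without any 1 of 3 depleted libraries (adjusted p = 0.0709 without untreated replicate 1, 0.084 without untreated replicate 3 and 0.0916 without Cisplatin replicate 3). The interaction of −0.56 (SE 0.28) did not pass (adjusted p = 0.266). Both neighbours of GPC2 were tested too. GAL3ST4, a galactose sulfotransferase that lies 0.856 kb from GPC2, rose by 1.58 on the log2 scale with Cisplatin (SE 0.37, adjusted p = 0.00203, edgeR). It had means of 6.05 and 10.9 normalized counts in untreated and treated control cells and 6.1 and 27.7 in depleted ones. These counts are low, so its p is not read as support. STAG3, a cohesin subunit of meiosis that starts 191 bp away, had a change of −0.22 (SE 0.20, adjusted p = 0.348, edgeR).

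GPC1, the main glypican of these cells and a marker of several carcinomas, had 5061, 2475 and 5517 normalized counts in untreated and 5468, 2957 and 4720 in Cisplatin-treated control cells. In depleted cells it had 2889, 3427 and 2852 when untreated and 2065, 2098 and 2226 after Cisplatin. The low values of the control cells were those of the libraries numbered 2 in both groups. The Cisplatin effect was 0.026 in control cells (SE 0.26, adjusted p = 0.939) and −0.47 in depleted cells (SE 0.26, adjusted p = 0.137). Without both control libraries numbered 2 the spread was smaller, and GPC1 then fell in depleted cells (log2 fold change −0.48, SE 0.08, adjusted p = 6.2e-05) and over both cell types (−0.30, SE 0.089, adjusted p = 0.00861), with an interaction of −0.44 (SE 0.12, adjusted p = 0.0245). With all libraries the effect over both cell types was −0.22 and the interaction −0.50, and neither passed. In the 6 control libraries taken as 3 pairs of equal number, the Cisplatin effect on GPC1 was 0.061 (SE 0.094, adjusted p = 0.593).

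Within single conditions, GPC2, GPC3 and GPC6 were called for Cisplatin in control cells, against 19.8% of all genes, and GPC3, GPC4 and GPC6 in depleted cells, against 23.1% of all genes. GPC4 was not called in depleted cells without shRNF113A Cisplatin replicate 3.

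**Figure D2:**
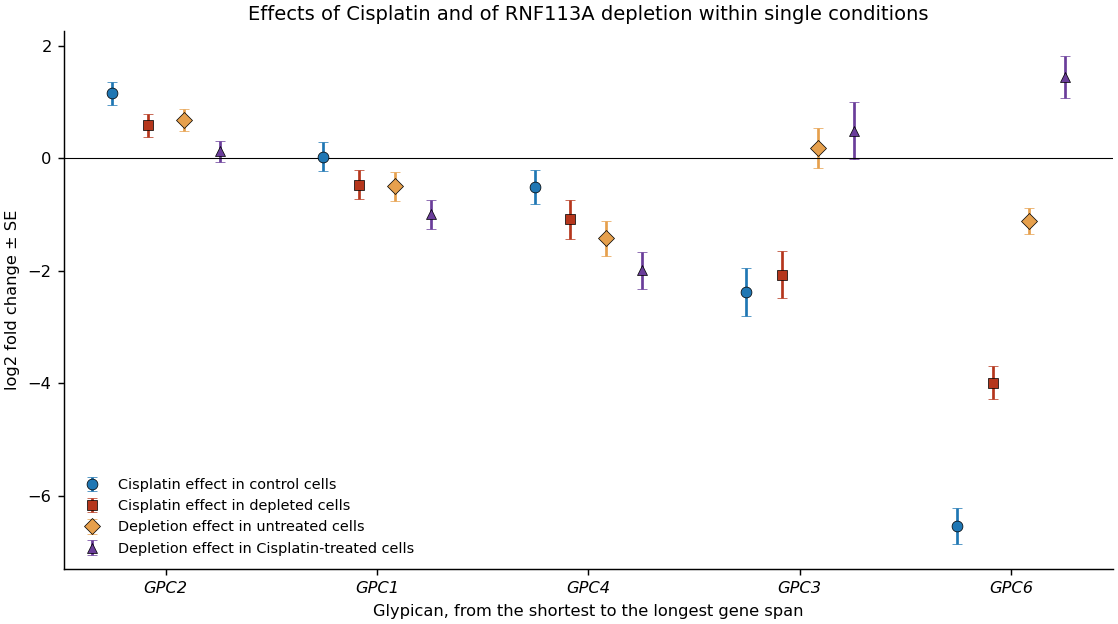
log2 fold changes with their SE (vertical axis) of the 5 tested glypicans, ordered from the shortest to the longest gene span, for Cisplatin within control and within depleted cells and for depletion within untreated and within Cisplatin-treated cells. GPC6 had a Cisplatin effect of −6.54 in control and −3.99 in depleted cells, and its depletion effect was −1.12 in untreated and 1.44 in treated cells.

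GPC4 and GPC1 were lower in depleted than in control cells over both treatments. Over all libraries 1 of 5 tested glypicans was called for depletion, GPC4, against 11% of all genes. There were 2 without both control libraries numbered 2, GPC4 (−1.34, SE 0.19) and GPC1 (SE 0.089, adjusted p = 1.2e-06, edgeR), which then just reached a 2-fold fall. By the adjusted p alone GPC4 and GPC1 were lower, against 24% of all genes, and 0 of 5 glypicans were higher, against 23.5% of all genes (edgeR gave an unadjusted p under 0.05 for 8390 of 15352 genes). GPC4 fell by 1.69 on the log2 scale (3.22-fold, SE 0.23, adjusted p = 8.9e-05), from 275 ± 147 to 102 ± 13.5 normalized counts in untreated cells and from 192 ± 30.6 to 46.4 ± 8.25 in Cisplatin-treated cells (SD, n = 3). All depleted libraries were below all control libraries at the same treatment. The fall was −1.42 in untreated cells (SE 0.31, adjusted p = 0.00536) and −1.995 in Cisplatin-treated cells (SE 0.33, adjusted p = 6.3e-04). Without both control libraries numbered 2, the highest for GPC4 in each control group, the fall in untreated cells was −0.88 (SE 0.17, adjusted p = 5.9e-04), under 2-fold.

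GPC1 fell by 0.75 on the log2 scale with depletion (1.68-fold, SE 0.19, adjusted p = 0.00612). In Cisplatin-treated cells it fell from 4382 ± 1289 to 2130 ± 85.1 normalized counts (SD, n = 3, log2 fold change −0.998, SE 0.26, adjusted p = 0.00944) and the groups did not overlap. This fall was −1.22 (SE 0.087, adjusted p = 2.9e-08), and more than 2-fold, without both control libraries numbered 2. In untreated cells it was at 4351 ± 1641 in control and 3056 ± 322 in depleted cells, with overlap, and the change of −0.50 did not pass (SE 0.26, adjusted p = 0.177). Without both control libraries numbered 2 this change was −0.78 and passed (SE 0.087, adjusted p = 3.1e-06).

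GPC2 and GPC3 were not lower on depletion. GPC2 was higher in untreated depleted cells (98.6 ± 17 against 61.8 ± 11.5 normalized counts, SD, n = 3, log2 fold change 0.68, SE 0.20, adjusted p = 0.0248), which no longer passed without any 1 of 4 libraries (adjusted p up to 0.112, without shRNF113A untreated replicate 2, and 0.0885 without shControl untreated replicate 3, 0.0544 without shControl untreated replicate 1 and 0.0502 without shRNF113A untreated replicate 1). In treated cells its change was 0.12 (SE 0.19, adjusted p = 0.635). For GPC3 the depletion effect was 0.29 (SE 0.28, adjusted p = 0.427), and without both control libraries numbered 2 it was 0.76 and passed (SE 0.22, adjusted p = 0.00923), as did its effect in untreated cells, 0.74 (SE 0.26, adjusted p = 0.0334). With all libraries the GPC3 effect in untreated cells was 0.18 and did not pass. In untreated cells the calls at least 2-fold were those of GPC4 and of GPC6, against 8.66% of all genes, and in Cisplatin-treated cells again those of GPC4 and GPC6, in opposite directions, against 12.3% of all genes. GPC6 was chosen on its interaction, the difference of these depletion effects, so nothing is read from its calls or their directions. Without both control libraries numbered 2, and also without shControl untreated replicate 2 alone, 0 glypicans were called in untreated cells. Without both, GPC4 and GPC6 (−0.90, SE 0.16) still fell there, by less than 2-fold, and 3 were called in treated cells, with GPC1 as the third.

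The order of the Cisplatin effects followed the length of the genes. From the shortest to the longest tested glypican, the log2 fold changes over both cell types were 0.86 for GPC2, −0.22 for GPC1, −0.77 for GPC4, −2.23 for GPC3 and −5.20 for GPC6. This order was known when the family was chosen and is given as a description. Over 13446 tested genes with a span in the deposited annotation, Spearman's rho between span and Cisplatin effect was −0.42, with −0.304 to −0.494 when single treated libraries were set against the untreated mean of their cells. Genes share libraries and are not independent replicates. The median effect was 0.22 in 2628 genes under 10 kb, 0.15 in 5798 genes of 10 to 50 kb, −0.070 in 2322 genes of 50 to 100 kb, −0.40 in 1656 genes of 100 to 200 kb, −1.32 in 862 genes of 200 to 500 kb and −2.78 in 180 genes of at least 500 kb. In the last class 78.9% of the genes fell at least 2-fold with an adjusted p under 0.05, against 2.85% of the genes under 10 kb.

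GPC2 stood above the median of its class and the other 4 glypicans stood below theirs. GPC2 was higher than 79.1% of the genes under 10 kb. GPC1 was lower than its class median, with 23.9% of the genes of 10 to 50 kb below it. For GPC4 the share of its class below it was 31.3%, for GPC3 it was 24.7%, and for GPC6 it was 8.33%, or 15 of 180 genes. Over both cell types the effect of GPC6 was thus in the lower part of the longest genes and not outside their range. In control cells alone 1.67% of that class, or 3 of 180 genes, lay below GPC6, and in depleted cells 23.9%. GPC6 was chosen on these values, so its place is a description.

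**Figure D3:**
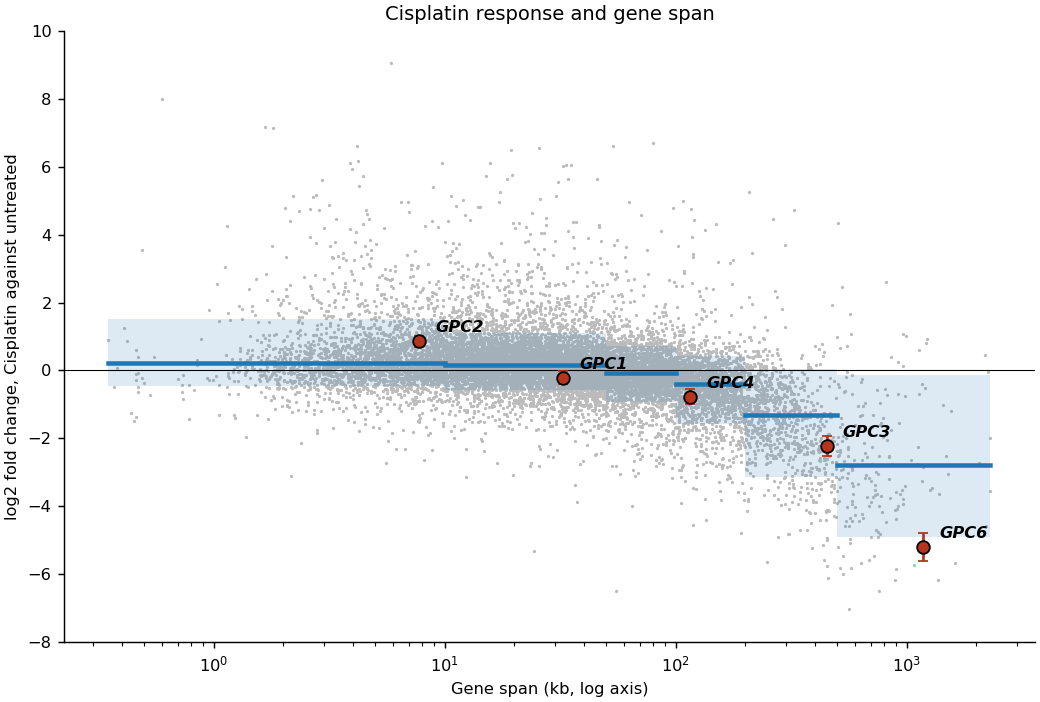
Cisplatin effect (log2 fold change, vertical axis) against gene span in kb (horizontal log axis) for 13446 genes, as grey points, with the median of each span class as a line and its 10th to 90th percentile as a band; red points with SE bars are the 5 tested glypicans. The glypicans went down from 0.86 for GPC2 to −5.20 for GPC6 as the class medians went from 0.22 to −2.78.

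The depletion effects of the glypicans did not follow this order. The medians of the same classes ran from 0.14 under 10 kb to −0.34 at 500 kb and over (rho = −0.288 over 13446 genes). GPC4 was among the lower genes of its class, with 4.23% of the genes of 100 to 200 kb below it, and GPC1 had 6.42% of its class below it. GPC3, which is longer than GPC4, had 87.6% of its class below it. GPC6 lay near the middle of the longest genes (47.2% below it) over all libraries. For the interaction the median of the 180 longest genes was −0.18, and 97.8% of them lay below GPC6, which was chosen on this value.

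Intronic reads, counted by the authors over the whole gene less those over its exons, rose relative to exonic reads in most genes. Over the 13072 genes tested, the ratio of intronic to exonic reads was called higher with Cisplatin in 52% and called lower in 1.32%. With depletion it was called higher in 71.3% and lower in 0.275%. These calls were made at an adjusted p under 0.05, so smaller shifts are not counted. Over these genes the share of intronic reads went with Cisplatin from 4.66% ± 0.255 to 5.79% ± 1.29 in control cells and from 6.2% ± 0.442 to 10.2% ± 0.205 in depleted cells (SD, n = 3). A changed ratio of a glypican is to be read against this shift.

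GPC6 had 58, 72 and 62 intronic reads in untreated control cells and 7, 19 and 16 after Cisplatin, while its exonic reads went from 1230, 1915 and 1170 to 7, 17 and 27. In depleted cells it had 35, 48 and 25 intronic reads when untreated and 19, 34 and 38 after Cisplatin, while exonic reads went from 748, 720 and 443 to 32, 25 and 38. Intronic reads of the 2 depleted groups overlapped, and exonic reads were more than 10-fold apart. The intronic share rose from 4.38% ± 0.712 to 46.7% ± 8.32 in control cells and from 5.35% ± 0.89 to 48.3% ± 10.3 in depleted cells (SD, n = 3). At this depth the shares of single treated libraries are loose, from 50% with an exact 95% interval of 23% to 77% on 14 reads to 50% with 38.3% to 61.7% on 76 reads, and these intervals cover counting error only. The log2 change of the ratio of GPC6 with Cisplatin was 4.13 (SE 0.25), above 85.4% of the genes of at least 500 kb, whose median was 2.37. The corresponding change with depletion was 0.28 (SE 0.23). Reads of a noncoding gene on the same strand inside GPC6, ENSG00000289204, would be counted with its introns.

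GPC1 rose in its intronic share as well, from 2.8% ± 0.352 to 4.69% ± 0.754 in control cells and from 4.11% ± 0.356 to 10.3% ± 0.677 in depleted cells (SD, n = 3). The ratio of intronic to exonic reads of GPC1 was higher with Cisplatin (log2 change 1.09, SE 0.16, adjusted p = 5.9e-06) and with depletion (0.91, SE 0.16, adjusted p = 5.3e-05). The Cisplatin change of GPC1 was above that of 89.3% of the genes of 10 to 50 kb (median 0.48), and its depletion change was above that of 65.5% of them (median 0.78). Its summed intronic reads in depleted cells were 391 when untreated and 615 after Cisplatin, while its exonic reads were 9044 and 5380.

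GPC2 had the highest intronic share of the tested glypicans in untreated cells, 20.1% ± 1.75 in control and 33.5% ± 4.99 in depleted cells (SD, n = 3). Its ratio rose with depletion (log2 change 0.84, SE 0.23, adjusted p = 0.00224), close to the median of 0.74 of genes under 10 kb. With Cisplatin the change was −0.30 (SE 0.23, adjusted p = 0.28) and its share was 18.4% ± 5.63 in control and 27.6% ± 1.37 in depleted cells, whereas the median of the genes under 10 kb was 0.32. GPC3 had 0 to 2 and GPC4 0 to 6 intronic reads in any library, too few to describe a share. The fits gave GPC3 a Cisplatin change of 2.81 (SE 0.97, adjusted p = 0.0178) and GPC4 a depletion change of 1.89 (SE 0.74, adjusted p = 0.0262), and both calls were lost without single libraries (GPC3: adjusted p = 0.0543 without shControl untreated replicate 2 and 0.0652 without shControl Cisplatin replicate 3; GPC4: 0.365 without shRNF113A Cisplatin replicate 1). Without both control libraries numbered 2 the depletion change of GPC4 was 1.58 (adjusted p = 0.0519, edgeR). Its Cisplatin change was then 1.88 (adjusted p = 0.0202), against 1.42 (adjusted p = 0.0916) with these libraries.

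**Figure D4:**
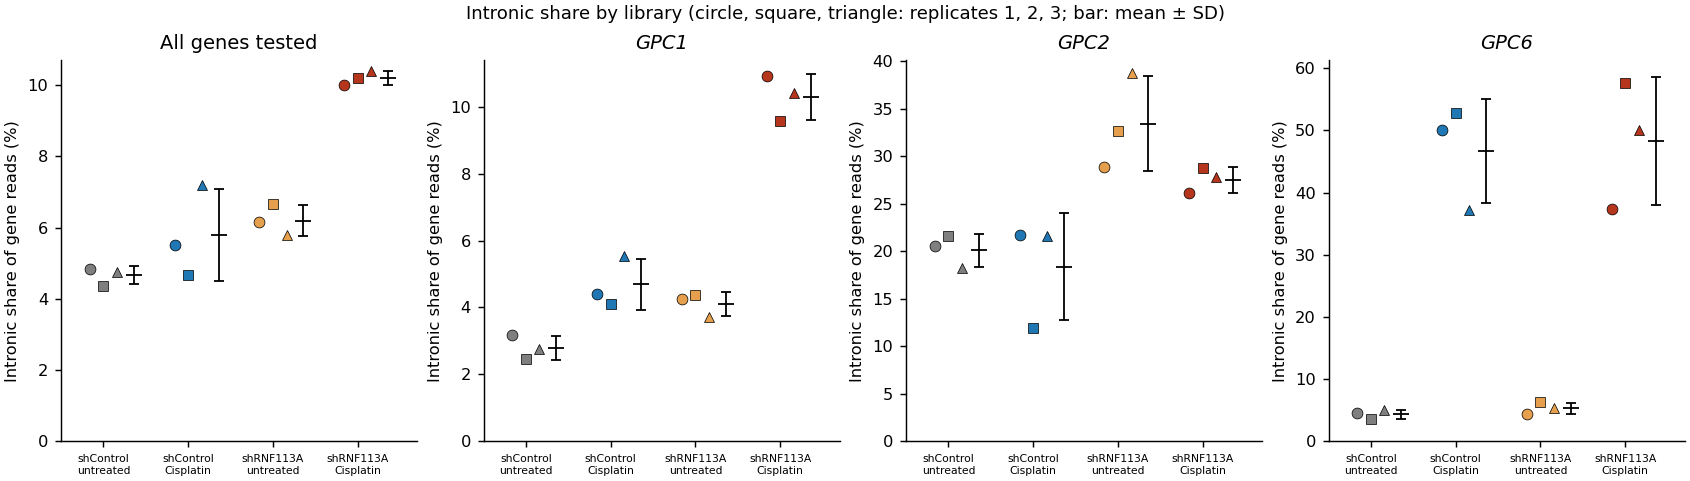
Intronic reads as a percentage of all reads of the gene (vertical axis) in each library by condition, for all 13072 genes tested and for GPC1, GPC2 and GPC6, with points for libraries and bars for mean and SD. The share of GPC6 went from 3.62% to 6.25% in untreated to 37.2% to 57.6% in Cisplatin-treated libraries, and that of all genes from 4.37% to 6.66% to 4.67% to 10.4%.

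Splicing tables of the authors listed 20 events in glypican genes, 6 in GPC1, 14 in GPC2 and 0 in the other 4 genes. Of these, 9 had at least 20 reads in every library of a comparison, which gave 19 comparisons. One of these events was a retained intron of GPC1, 1103 bp long (chr2:241402930-241404032 of hg19, plus strand). Its 2 splice sites are shown, with the first and last bases of the intron in capitals, after or before 3 bases of exon.
GPC1 donor: tggGTgagcccccacccgcgaga
GPC1 acceptor: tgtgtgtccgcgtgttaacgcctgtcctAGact
The inclusion level of this intron was 1.75%, 1.07% and 1.77% in untreated control cells and 2.43%, 2.3% and 3.11% in Cisplatin-treated control cells. It was 3.21%, 1.86% and 2.69% in untreated and 2.63%, 2.37% and 3.26% in Cisplatin-treated depleted cells. The untreated control libraries were below all 9 others. The mean was 1.09 percentage points higher with Cisplatin in control cells and 1.06 higher with depletion in untreated cells, each with p = 0.1 in a two-sided exact permutation test, the smallest p that 3 libraries against 3 allow (0.95 after Benjamini-Hochberg adjustment over the 19 comparisons). Between the treated groups the difference was 0.141 points (exact p = 0.6), and within depleted cells it was 0.172 points (exact p = 0.8). No comparison of inclusion levels can pass 0.05 in this design. The group means of the other GPC1 events lay at 94.4% to 100% inclusion, apart from an alternative 3′ site at 1.81% to 2.53%. A choice between 2 exons of GPC2 had means of 63.2% and 67.6% in treated control and treated depleted cells (exact p = 0.4), and the groups overlapped. None of the comparisons other than the 2 of the retained intron was without overlap. With an exact p of 0.1 each, separations of this kind can arise among 19 comparisons without any difference. Their share over all events of the authors was not counted, so nothing is read from these 2.

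Glypicans need enzymes that build, sulfate and trim their sugar chains. Genes of these steps and of the ligand pathways were counted from lists chosen by name. By the same adjusted p, 34.8% of all genes were higher and 32.1% lower with Cisplatin, and 23.5% were higher and 24% lower with depletion, and each count is to be read against these shares. The Cisplatin effect also went with gene span over all genes (rho = −0.42). The lists were not matched to other genes by span, so the part of span in their counts and in the falls of named genes was not tested. Among 17 tested genes of heparan sulfate chain synthesis 10 fell and 2 rose with Cisplatin, against 32.1% and 34.8% of all genes (median log2 fold change −0.39, and 0.028 for all genes tested). XYLT1, which attaches the first sugar of the chain, fell by 4.71 on the log2 scale (SE 0.32, adjusted p = 2.4e-08), and EXT1, a polymerase of the chain, fell by 2.15 (SE 0.094, adjusted p = 4.5e-10). Both genes that rose, B3GALT6 and B3GAT3, build the linker between protein and chain. With depletion 5 of the 17 fell and 4 rose, and XYLT1 was the only one called, with a fall of 4.20 (SE 0.31, adjusted p = 6.2e-07). XYLT1 had means of 312 and 11.2 normalized counts in untreated and treated control cells and 15.9 and 0.799 in depleted ones. It was low in all groups except untreated control cells, so neither of its p-values is read as support.

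Of 9 tested genes that modify the chain, 6 fell and 2 rose with Cisplatin (median −0.80). HS6ST2, a 6-O-sulfotransferase, fell by 2.92 (SE 0.22, adjusted p = 8.0e-08), HS3ST1, a 3-O-sulfotransferase, by 1.34 (SE 0.20, adjusted p = 4.1e-05), and GLCE, the epimerase of the chain, by 1.14 (SE 0.13, adjusted p = 2.8e-06). With depletion 5 fell and 1 rose, NDST2 (median −0.36), with falls of 1.61 for HS3ST3B1 (SE 0.22, adjusted p = 7.8e-05) and 1.26 for HS3ST6 (SE 0.27, adjusted p = 0.00215), both 3-O-sulfotransferases.

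Among 13 tested genes of glypican release and chain turnover, 5 rose and 3 fell with Cisplatin (median 0.26), close to the 34.8% and 32.1% of all genes. SULF2, an extracellular sulfatase that removes 6-O-sulfates, rose by a log2 fold change of 1.81 (SE 0.12, adjusted p = 1.7e-08) and SGSH, a lysosomal sulfatase, by 1.15 (SE 0.11, adjusted p = 8.4e-07), and PCSK5, a proprotein convertase, fell by 2.04 (SE 0.25, adjusted p = 7.8e-06). With depletion 4 rose and 3 fell (median 0.017), and SULF2 was the only one called (−1.005, SE 0.12, adjusted p = 2.1e-05).

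Of the other 9 heparan sulfate proteoglycans 3 rose and 3 fell with Cisplatin (median 0.008), shares close to the 34.8% and 32.1% of all genes. SDC4, a syndecan of focal adhesions, rose by a log2 fold change of 1.65 (SE 0.15, adjusted p = 3.6e-07). COL18A1, a basement membrane collagen with heparan sulfate, fell by 1.76 (SE 0.14, adjusted p = 1.1e-07), and SDC2, another syndecan, by 1.39 (SE 0.41, adjusted p = 0.00886). Both also fell with depletion, COL18A1 by 1.25 (SE 0.14, adjusted p = 1.5e-05) and SDC2 by 2.53 (SE 0.42, adjusted p = 3.6e-04), while 3 of the 9 rose and 3 fell.

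In the Hedgehog pathway 7 of 11 tested genes fell with Cisplatin and 1, SMO, rose, against 32.1% and 34.8% of all genes (median −0.92). The 3 transcription factors GLI3, GLI2 and GLI1 fell by 3.44, 2.30 and 1.73 on the log2 scale (SE 0.31, 0.29 and 0.18, adjusted p = 3.7e-07, 1.0e-05 and 1.5e-06). With depletion 5 fell and 2 rose (median −0.39), with falls of 2.02 for GLI3 (SE 0.30, adjusted p = 1.4e-04) and 1.87 for the ligand SHH (SE 0.28, adjusted p = 1.7e-04). GLI3 had means of 98.7 and 8.32 normalized counts in untreated and treated control cells and 22.8 and 2.37 in depleted ones. It was low in all groups except untreated control cells, so neither of its p-values is read as support.

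Of 19 tested Wnt receptors and feedback genes 12 fell and 2 rose with Cisplatin, against 32.1% and 34.8% of all genes (median −0.53). The receptor kinases ROR2 and ROR1 fell by 2.88 and 1.80 (SE 0.43 and 0.29, adjusted p = 4.9e-05 and 9.9e-05), and the receptor FZD9 rose by a log2 fold change of 1.50 (SE 0.24, adjusted p = 8.8e-05). With depletion 11 fell and 2, FZD3 and FZD4, rose, against 24% and 23.5% of all genes (median −0.48), with ROR2, the ubiquitin ligase ZNRF3 and ROR1 lower by −2.66, −1.21 and −1.03 (SE 0.43, 0.12 and 0.29, adjusted p = 2.9e-04, 5.5e-06 and 0.0107). ROR2 had means of 135 and 21.8 normalized counts in untreated and treated control cells and 25.4 and 1.46 in depleted ones. It was low in all groups except untreated control cells, so neither of its p-values is read as support. Among 9 tested FGF ligands and receptors 5 fell and 1 rose with Cisplatin (median −0.69). The ligand FGF18 rose by a log2 fold change of 1.76 (SE 0.29, adjusted p = 1.0e-04), and the receptors FGFR2 and FGFR1 fell by 1.43 and 1.38 (SE 0.20 and 0.16, adjusted p = 2.8e-05 and 3.3e-06). With depletion 5 fell and 3 rose (median −0.40), with rises of 2.48 for FGFBP1, a carrier of FGFs (SE 0.16, adjusted p = 1.5e-07), and 1.71 for the ligand FGF9 (SE 0.52, adjusted p = 0.0152) and a fall of 1.83 for FGFR2 (SE 0.20, adjusted p = 1.6e-05). FGF9 had means of 6.27 and 7.72 normalized counts in untreated and treated control cells and 35.8 and 13.6 in depleted ones. Its treated groups overlapped. FGF18 had means of 9.4 and 10 in untreated control and depleted cells and 38.8 and 27.4 after Cisplatin. Both were low in the groups they rose from, so their p is not read as support. The median over all genes was −0.002 for depletion.

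Genes with profiles most like those of each glypican were taken by Pearson's r of log2 CPM over the 12 libraries, which share the 4 conditions, so high values are common and are a description only. For GPC6 they were DGCR5 (r = 0.99), CORO2B (0.988) and GABRA3 (0.988), for GPC3 they were ANK3 (0.994), CUX1 (0.988) and LTBP1 (0.987), and for GPC4 they were KSR1 (0.988), ARSE (0.986) and PDK3 (0.983). For GPC1 they were BCL11B (0.965), CRIM1 (0.946) and SPATS2L (0.945), and for GPC2 SYTL1 (0.966), DFNB31 (0.954) and KCNC4 (0.954). These genes had spans of 707.2, 468.3 and 452.5 kb for GPC3, of 148.8 and 285.1 kb for CORO2B and GABRA3, and from 11.91 kb (SYTL1) to 195.2 kb (CRIM1) for the other 3 glypicans. Among the other nearest neighbours of the glypicans, SLITRK5, before GPC5 and GPC6, had a change of −0.27 (SE 0.14, adjusted p = 0.101), CCDC160, beyond GPC3, of 0.67 (SE 0.31, adjusted p = 0.0688), and ANKMY1, beyond GPC1, fell by 0.33 (SE 0.074, adjusted p = 0.00119). DCT, TFDP3, OTOS and AC110619.2 did not pass the filter on low counts.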

How the data were processed

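The authors made stranded TruSeq mRNA libraries, sequenced them from both ends, aligned reads to hg19 with STAR 2.5.2b and deposited raw counts of read pairs per gene, without normalization. They also deposited HTSeq counts over exons and over whole genes (protein-coding, Gencode v19), and rMATS tables with inclusion and skipping read counts of each library, whose order is not named. Counts on the strand of the gene were used, without entries that name no gene (13.98% to 22.59% of read pairs).

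Effects were tested with edgeR 4.0.16 in R 4.3.3 (TMM, filterByExpr, quasi-likelihood test, Benjamini-Hochberg adjustment over 15352 genes). The overall effects came from a model with Cisplatin and depletion, and all others from a model that added their interaction. The SE is the log2 fold change divided by the root of the F statistic. Intronic reads were tested against exonic reads with a term for each library and called at an adjusted p-value under 0.05. Inclusion levels used the effective lengths of the tables and exact permutation tests (scipy 1.17.1). Normalized counts were divided by size factors of DESeq2 1.42.0, and log2 CPM had a prior count of 2. Python 3.11.15, numpy 2.4.6, pandas 2.3.3 and matplotlib 3.10.9 were also used. On simulated data with 200 changed genes, 200 were recovered for the Cisplatin, depletion and interaction effects (15162, 15140 and 15146 genes tested, with 0, 0 and 2 others called) and 200 for each effect on the ratio (12736 and 12720 genes, with 15 and 7 others called). These changes were planted in well-counted genes, with a small uniform spread and no outlying libraries. The recovery therefore does not carry over to genes as scarce as GPC3 or as variable as GPC4.

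The members, lists and tests were chosen with earlier results of these data known. Named genes are the glypicans, up to 3 called genes of each list with the greatest change per effect, the nearest protein-coding neighbours and the 3 genes with the highest r to each tested glypican. Not every gene that this rule names is reported here. B3GALT6, B3GAT3, SMO, NDST2, FZD3 and FZD4 were named after their values were seen. The design text calls the replicates biological. Control libraries of equal number deviated together between treatments (r = 0.632, 0.731 and 0.48 across 9779 genes), so they were also fitted as 3 pairs, a pairing that the labels do not state. It changed no glypican call. The depleted libraries (r = 0.406, −0.0647 and 0.299) were not paired. Alternatives were unstranded counts, library size, DESeq2, other filters, a replicate block and the omission of each library. The omission of both control libraries numbered 2 and the paired fit were chosen after seeing the data.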

Additional observations from a re-analysis of the deposited data

Results flagged for a closer look

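The Cisplatin effect on GPC6 differed between control and depleted cells, with an interaction of 2.56 on the log2 scale. GPC6 was chosen for this difference, so it is given as a value and not as a result. The difference was 2.20 to 2.88 without any single library, 2.36 without both control libraries numbered 2 and 2.54 with a replicate block.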

How the results depend on the processing

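When 10 counts were required in every library, which leaves GPC1, GPC2 and GPC4 as the tested glypicans, the genes called were 2121 for Cisplatin (3298 in the report), 824 for depletion (1687), 789 for depletion in untreated cells (1329) and 1103 for depletion in treated cells (1891). The interaction was called in 196 genes, in 75 to 420 without single libraries (75 without shRNF113A untreated replicate 1, 420 without shControl untreated replicate 2) and in 522 without both control libraries numbered 2. Signs that turned belonged to effects that had not passed, or to GPC6, which has no test. The depletion effect on GPC6 was −0.38 and with DESeq2 0.078. Without single libraries, the Cisplatin effect in control cells was −0.25 to 0.25 for GPC1 (−0.035 without both control libraries numbered 2) and −0.77 to 0.019 for GPC4, with the extremes without shControl untreated replicates 3 (adjusted p = 0.0333, edgeR) and 2. The interaction of GPC3 was −0.25 to 0.63, its depletion effect in untreated cells −0.10 to 0.73, and the depletion effect on GPC2 in treated cells −0.008 to 0.16. The Cisplatin effect on GPC4 in depleted cells had an adjusted p of 0.0555 (edgeR) without shRNF113A Cisplatin replicate 3. The retained intron of GPC1 differed by −0.113 to 0.389 points between the treated groups and by −0.19 to 0.483 between the depleted groups, and by 0.838 to 1.24 and 0.744 to 1.42 for the differences without overlap. The cause of these changes was not tested. A replicate block changed no call of a glypican, with 3332 genes called for Cisplatin, 1707 for depletion and 217 for the interaction. No paired analysis was possible for inclusion levels because their libraries are not named. GPC3 and GPC6 after Cisplatin rest on few reads, and GPC5 on almost none.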
